A study of Mus musculus with 4 samples.

Results

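Nuclear receptor genes were followed in stem cells of the mouse small and large intestine. The set was 37 genes chosen by name from the nuclear receptor superfamily, with earlier results of these data known. It does not hold every gene of the family. All 37 were matched among the 55487 genes of the expression tables. RNA was sequenced from Lgr5-EGFP-IRES-creERT2 mice, whose Lgr5 locus also makes a green fluorescent protein in stem cells, aged 6 to 12 weeks and given no treatment. All libraries share this allele, which carries an inducible Cre, and no library from mice without it was analysed here. Small-intestinal stem cells (SISC) were the fluorescent, CD24-negative cells of pieces taken 2 to 3 cm from the pylorus and 2 to 3 cm from the cecum. Large-intestinal stem cells (LISC) were the fluorescent cells from cecum to rectum, with no CD24 gate named, so intestine and gate cannot be told apart. There were 2 libraries in each group, and the labels do not say whether they came from separate mice, so p-values here measure the spread among these libraries only, and that spread may be technical.

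Nuclear receptors are transcription factors whose activity is set in many cases by a small lipophilic ligand, such as a steroid, a bile acid, a fatty acid, retinoic acid, thyroid hormone or a vitamin D metabolite. Many bind DNA as a pair with a retinoid X receptor (RXR), at repeats of a short hexamer, and recruit corepressors or coactivators according to the ligand. In the intestinal epithelium they are known as sensors of diet, bile and xenobiotics, and several orphan members have no established natural ligand.

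Libraries held 12795434 to 27227715 expected counts, and replicate number 1 differed from replicate number 2 in both groups: a nuclear rRNA gene took 24.1% (SISC) and 28.5% (LISC) of counts in replicate 1 but 0.0917% and 0.0997% in replicate 2. TPM (a share of all transcripts, scaled by gene length and used here for levels between genes) is lowered in replicate 1 by this share. CPM (read counts as a share of the library, scaled with TMM factors) is used for differences between groups. Differences within each replicate number, which compare single libraries without a test and use log2(CPM + 0.25), are therefore given beside the fitted ones. Epcam and Lgr5, markers of epithelium and of the sorted stem cells, were read in every library. The full list of 8 such markers summed to 11830 and 16780 CPM in SISC against 3685 and 4838 CPM in LISC. By fitted difference 4 of the 8 were higher in LISC and 4 in SISC, and edgeR called 1 of them, Olfm4, higher in SISC. DESeq2 called Olfm4 and Smoc2, both higher in SISC. Log2 differences of the 8 ran from -6.66 to 0.11 with a median of -0.13, so the sum does not stand for each marker. Of 8 stromal and endothelial markers, summed levels were 0.0728 and 0.469 CPM in SISC against 0.463 and 1.41 CPM in LISC, with Kdr at 0 counts throughout. Markers of other epithelial lineages moved with the groups or with single libraries, and their summed levels are given with the receptors below.

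Pparg and Rarg, both higher in LISC, were the members called by edgeR's quasi-likelihood test, and other tools called them together with further members. Their promoters are shown because these calls held under every alternative run. The windows are the 250 bases before each RefSeq start site (GRCm38.p6), 5' to 3' on the gene's strand, and capitals mark the receptor hexamer AGGTCA, which reads TGACCT where it lies on the other strand. Pparg (plus strand, chromosome 6) has 3 annotated starts. The windows of the first and second overlap annotated exons of the gene, and 30 bases around the hexamer of each are printed.
Pparg start 1 (chr6:115361104-115361133): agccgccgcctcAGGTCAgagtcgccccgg
Pparg start 2 (chr6:115362319-115362348): ttttatataagggacgcgaggAGGTCAaga
Pparg start 3 (chr6:115421816-115422065): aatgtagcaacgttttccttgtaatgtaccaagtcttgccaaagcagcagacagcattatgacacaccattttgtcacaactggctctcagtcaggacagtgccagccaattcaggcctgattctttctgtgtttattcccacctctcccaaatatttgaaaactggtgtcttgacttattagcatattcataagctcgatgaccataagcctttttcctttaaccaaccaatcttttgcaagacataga
Rarg (minus strand, chromosome 15) has 2 annotated starts, both shown whole.
Rarg start 1 (chr15:102257523-102257772): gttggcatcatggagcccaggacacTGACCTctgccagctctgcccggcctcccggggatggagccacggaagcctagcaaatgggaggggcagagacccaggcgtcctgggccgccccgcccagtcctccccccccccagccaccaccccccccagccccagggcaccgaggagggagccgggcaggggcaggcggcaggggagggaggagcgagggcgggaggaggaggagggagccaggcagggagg
Rarg start 2 (chr15:102246501-102246750): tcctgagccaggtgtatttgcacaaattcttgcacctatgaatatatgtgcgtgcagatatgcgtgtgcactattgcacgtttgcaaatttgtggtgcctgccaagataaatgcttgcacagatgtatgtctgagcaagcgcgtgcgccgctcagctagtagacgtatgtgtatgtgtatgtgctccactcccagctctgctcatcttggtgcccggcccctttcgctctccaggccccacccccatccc
The hexamer lies 28 and 9 bases before Pparg starts 1 and 2 and 225 bases before Rarg start 1, and the windows of Pparg start 3 and Rarg start 2 do not hold these letters. Base composition differed between the windows, with 82.4%, 63.6% and 40.8% G and C at the Pparg starts and 74.4% and 52.4% at the Rarg starts. Both strands were searched in the 56 windows found for 36 of the 37 members (Thra had no entry). The hexamer was in 10 of them (17.9%), against 14.0% of the 32851 windows of all genes. Direct repeats of AGGTCA with 1 base between, an arrangement known for PPAR pairs, or with 5 bases between, known for retinoic acid receptor pairs, contain the hexamer by construction. They were in 0 of the 56 windows and in 11 (0.0335%) and 3 (0.00913%) of the 32851. The counts are per gene and do not tell which start was used.

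Receptor levels in the stem cells spanned a wide range. Vdr, the vitamin D receptor gene, had the highest TPM of the 37 members in all 4 libraries, at 90.3 and 145.24 TPM in SISC and 64.23 and 114.74 TPM in LISC, or 19.3% to 25.4% of the summed TPM of the members. Between 25 and 26 members reached 1 TPM in a library, and between 10 and 14 reached 10 TPM. After Vdr, the highest mean TPM over the 4 libraries belonged to Nr1h2, Nr2f6, Thra, Esrra, Ppard, Rxrb, Pparg, Nr1i2 and Rxra, in that order. The place of Pparg came from LISC, where its mean was 42.5 TPM, against 2.60 TPM in SISC. Neighbours in this order were not separated: the ranges over libraries of Nr1h2 (27.74 to 56.53 TPM), Nr2f6 (28.74 to 50.48 TPM), Thra (20.29 to 62.08 TPM), Esrra (24.95 to 44.78 TPM) and Ppard (28.2 to 43.15 TPM) overlapped. At the other end, Rxrg and Esrrb had 0 counts in every library, which allows up to 0.0937 to 0.278 CPM per library by counting error alone. Nr2f1 had 1 count in all, and Rorb, Esr2, Nr4a3 and Pgr were also too low for the test, so that 30 of the 37 members were tested.

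**Figure D1:**
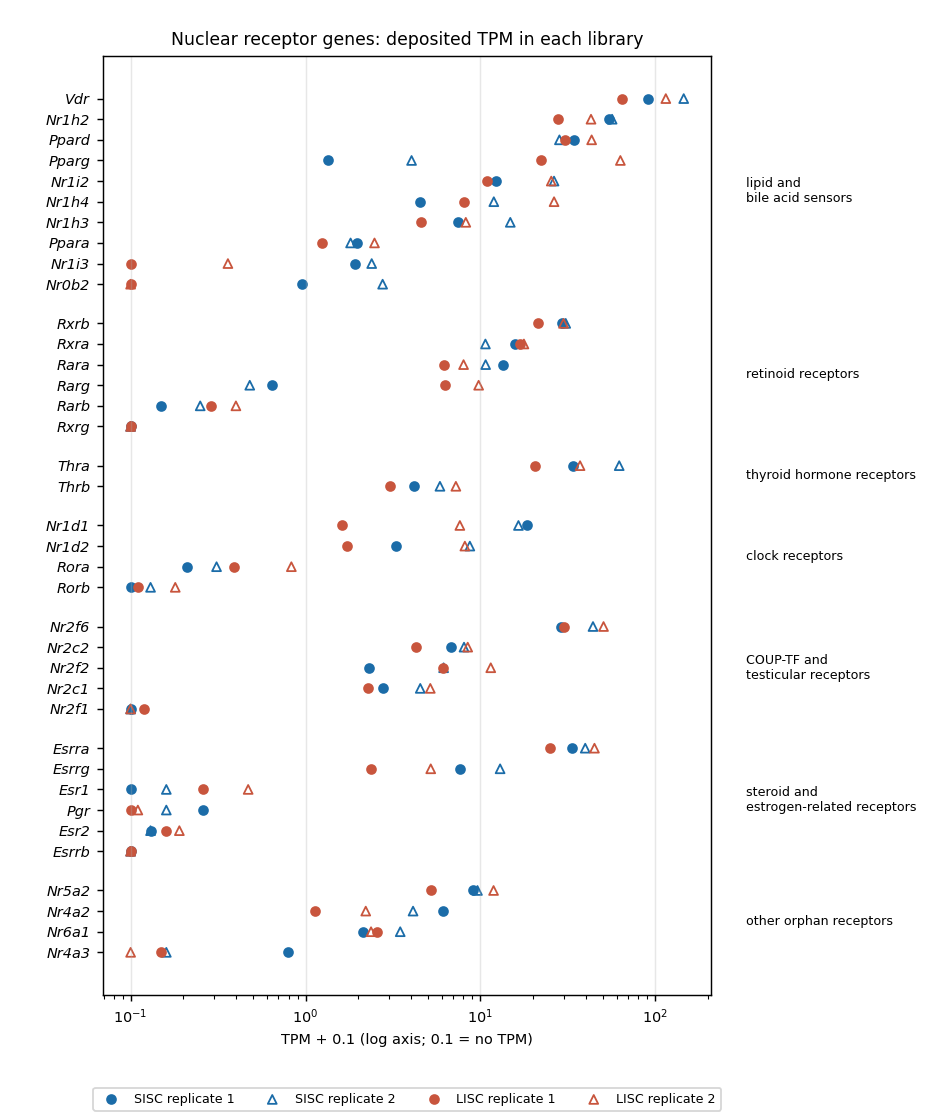
Deposited TPM of the 37 receptor genes, plotted as TPM + 0.1 on a log axis, with rows ordered by role and then by mean level. Each point is 1 library, blue for SISC and red for LISC, with circles for replicate 1 and open triangles for replicate 2. Vdr lies farthest right in each library. Pparg and Rarg have both red points to the right of both blue points.

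Comparing LISC with SISC asked which receptor genes differ between the stem cells of the 2 intestines. Calls among the 30 members tested were 2 higher in LISC and 0 in SISC by edgeR's quasi-likelihood test (adjusted p below 0.05). The background was 1.45% of all 14165 genes for LISC and 0.741% for SISC, or 2.20% in either direction. At an unadjusted p below 0.05 there were 5 members higher in LISC and 7 higher in SISC, against 8.73% and 4.67% of all genes. Together they were 40% of the members tested, against 13.4% of all genes in either direction. Groups did not overlap for 7 members higher in LISC and 10 higher in SISC, against 21.9% and 18.4% of all genes. In both replicate numbers, 6 members were over 1 log2 unit higher in LISC and 4 in SISC, against 7.66% and 3.59%. DESeq2 called 7 of the 32 members it tested, against 7.41% of all genes it tested. It added Esr1 in LISC and Esrrg, Nr0b2, Nr1d1 and Nr1i3 in SISC. Limma-trend on log2(TPM + 1) called 4 of the 30 members, against 3.71% of all genes it tested, with Nr0b2 and Nr1i3 in SISC. The 30 members had a median log2 difference of -0.18 (the same with Nr0b2 at its bound), and -0.27 and -0.08 within replicates 1 and 2, against -0.02 over all genes tested. In a bulk library, fewer cells of a type and less RNA per cell cannot be told apart.

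**Figure D2:**
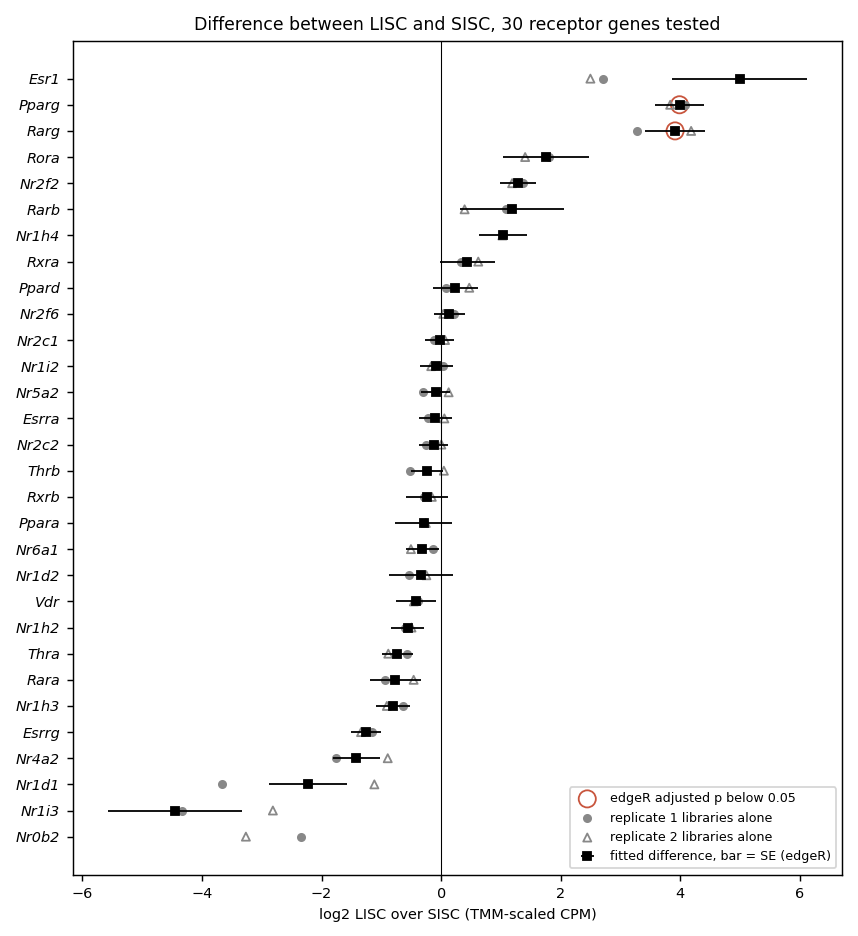
Log2 difference of LISC over SISC for the 30 receptor genes tested, ordered by the fitted value. Squares with bars are edgeR's fitted difference and its SE, red rings mark the called genes, and grey symbols are the differences of log2(CPM + 0.25) between single libraries of replicate 1 (circles) and replicate 2 (triangles). Nr0b2, with 0 counts in LISC, is shown without a fitted value, and 18 of the 30 genes lie within 1 log2 unit of 0.

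Among the lipid and bile acid sensors, the PPAR genes encode receptors for fatty acids and their derivatives. Pparg (ENSMUSG00000000440; chromosome 6, 115360951 to 115490399, GRCm38), known for its role in fat cells and in colonic epithelium, was read at 3.20 and 5.62 CPM in SISC against 58.2 and 83.3 CPM in LISC. Both LISC libraries were far above both SISC libraries, and within each group replicate 2 was the higher. The fitted difference was 15.9-fold, or 3.99 ± 0.42 (SE) on the log2 scale (edgeR adjusted p = 0.0267), and 4.08 and 3.83 within replicates 1 and 2. It was called under all 11 alternatives run, with log2 differences from 3.53 to 4.44. Levels of mature colonocyte markers moved with it between the groups. Of 6 such genes, Car1 and Aqp8 had 0 counts in both SISC libraries, and the summed level of the list was 109 and 46.0 CPM in SISC against 361 and 1431 CPM in LISC. Tuft cell markers summed to 15.0 and 3.56 CPM in SISC against 54.6 and 84.5 CPM in LISC, and goblet cell markers to 2051 and 449 CPM against 3325 and 5655 CPM. Between the LISC libraries Pparg differed 1.43-fold and the colonocyte sum 3.97-fold. Between the SISC libraries Pparg was higher in replicate 2, while the colonocyte, tuft and goblet sums were higher in replicate 1. The part of such cells in the difference was not tested.

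Ppard, which encodes the PPAR most widely expressed across tissues, was read at 119 and 69.0 CPM in SISC against 126 and 95.7 CPM in LISC, and the groups overlapped (log2 0.23 ± 0.38, edgeR adjusted p = 0.966). Ppara, the receptor gene known for fatty acid oxidation in liver, was low in all libraries, at 7.06 and 4.40 CPM in SISC against 5.74 and 3.64 CPM in LISC. By TPM, Ppard was 27.4 and 7.16 times the level of Pparg in the SISC libraries and 1.39 and 0.684 times in the LISC libraries. Among the 37 members, Pparg ranked 25th and 22nd by TPM in SISC and 6th and 2nd in LISC.

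The remaining sensors did not pass the test. Nr1h4 encodes FXR, the bile acid receptor, and was read at 10.8 and 18.02 CPM in SISC against 22.3 and 36.9 CPM in LISC. All LISC values were above all SISC values, and the difference was 2.06-fold (log2 1.04 ± 0.40, edgeR adjusted p = 0.369; 1.04 and 1.02 within replicates 1 and 2). Nr0b2 encodes SHP, a repressor without a DNA-binding domain that FXR is known to induce. It had 14 and 69 counts in SISC and 0 in both LISC libraries, which puts SISC at least 8.33-fold higher when LISC is set to 3 counts per library (edgeR adjusted p = 0.115). The highest Nr0b2 level was 2.16 CPM, in SISC replicate 2. DESeq2 and limma-trend called Nr0b2 (adjusted p = 0.00321 with DESeq2), and neither called Nr1h4.

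Nr1i3, the gene of the xenobiotic receptor CAR, had 66 and 118 counts in SISC and 0 and 9 in LISC. Its levels were 4.802 and 3.69 CPM against 0 and 0.309 CPM (log2 -4.46 ± 1.12, edgeR adjusted p = 0.155), and -4.34 and -2.81 within replicates 1 and 2. The fit rested on the 9 counts of LISC replicate 2: the log2 difference was -9.32 without that library, a value set by 0 counts, and -3.75 without LISC replicate 1. On the opposite strand Tomm40l covers 74.9% of the exon bases of Nr1i3, and no source used here gives the strand setting. RSEM's standard deviation of the count, a check for divided reads, was 0 for both genes in every library. Tomm40l was read at 32.3 and 35.2 CPM in SISC against 35.5 and 34.3 CPM in LISC, nearly level across the libraries in which Nr1i3 ranged from 0 to 4.802 CPM. Nr1i2 encodes PXR, the other main xenobiotic receptor, and did not separate the groups, at 39.8 and 52.9 CPM in SISC against 40.6 and 47.2 CPM in LISC (log2 -0.08 ± 0.27, edgeR adjusted p = 0.999).

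Nr1h3 and Nr1h2 encode the oxysterol receptors LXR alpha and LXR beta. Nr1h3 was read at 14.4 and 19.8 CPM in SISC against 9.17 and 10.4 CPM in LISC (log2 -0.80 ± 0.28, edgeR adjusted p = 0.315). Nr1h2 was read at 96.3 and 76.8 CPM in SISC against 63.2 and 54.3 CPM in LISC (log2 -0.56 ± 0.28, edgeR adjusted p = 0.535). For both genes each SISC library was above each LISC library, but neither difference passed. Vdr showed the same arrangement, at 526 and 511 CPM in SISC against 402 and 372 CPM in LISC, a 1.34-fold difference (log2 -0.42 ± 0.33, edgeR adjusted p = 0.806).

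Retinoid receptors comprise the RAR genes, whose products bind all-trans retinoic acid, and the RXR genes, whose products pair with many other receptors. Rarg (ENSMUSG00000001288; chromosome 15, 102234938 to 102257517) was read at 1.89 and 0.812 CPM in SISC against 20.4 and 19.0 CPM in LISC. The 2 LISC libraries were nearly level, and the SISC values rested on 26 counts in each library. The fitted difference was 15.1-fold, or 3.91 ± 0.50 on the log2 scale (edgeR adjusted p = 0.0403), and 3.27 and 4.18 within replicates 1 and 2. Rarg was called under all 11 alternatives run, with log2 differences from 2.58 to 4.58. The colonocyte, tuft and goblet marker sums given for Pparg moved with Rarg between the groups too, but between the LISC libraries Rarg was level while each of those sums was higher in replicate 2; their part was not tested. Leaving out SISC replicate 1 moved the fold most among the libraries, to 4.58 on the log2 scale, and leaving out SISC replicate 2 gave 3.35.

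Rara, the RAR gene read in many tissues, was at 50.4 and 24.8 CPM in SISC against 26.3 and 17.98 CPM in LISC, with overlapping groups (log2 -0.77 ± 0.43, edgeR adjusted p = 0.620). By TPM, Rara was 24.6 and 27.9 times the level of Rarg in the SISC libraries and 0.987 and 0.818 times in the LISC libraries. Rarb, itself a known retinoic acid target, stayed at or below 0.741 CPM in every library, and Top2b on the opposite strand covers 34.1% of its exon bases. Of the RXR genes, Rxra was read at 83.9 and 42.5 CPM in SISC against 106 and 65.4 CPM in LISC and Rxrb at 84.2 and 53.9 CPM in SISC against 68.8 and 48.4 CPM in LISC. Both were higher in replicate 1 than in replicate 2 of each group, and the groups overlapped (edgeR adjusted p = 0.899 and 0.958). Their log2 differences were 0.44 ± 0.45 and -0.24 ± 0.35.

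**Figure D3:**
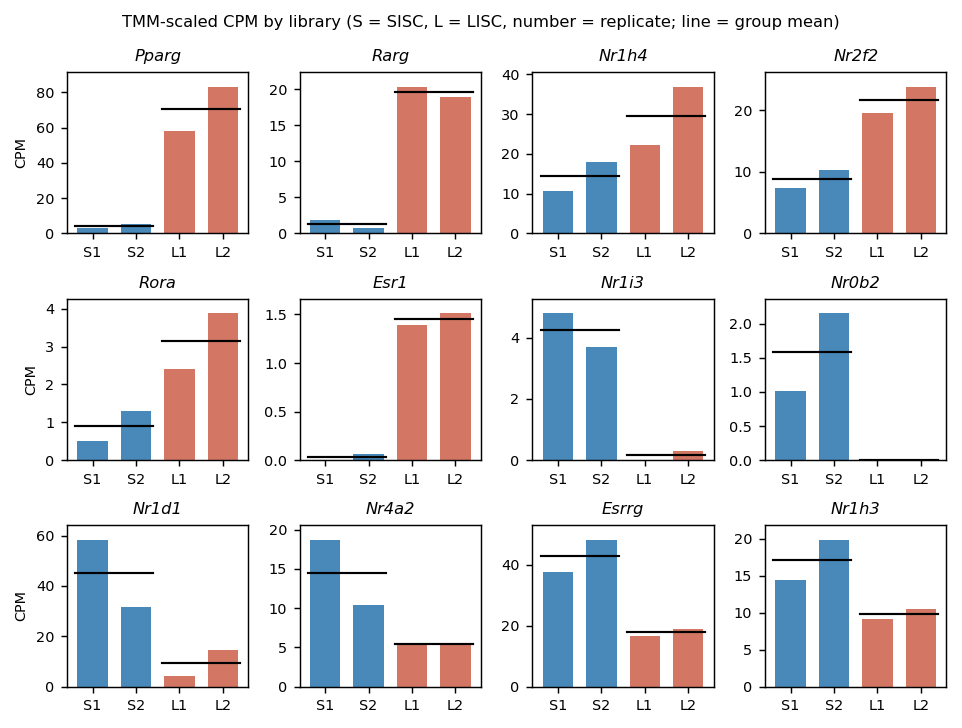
TMM-scaled CPM of 12 receptor genes in each library, with a separate linear axis from 0 for each gene. Bars S1 and S2 are SISC replicates 1 and 2, L1 and L2 are LISC replicates 1 and 2, and black lines are group means. Pparg and Rarg, the called genes, are above 19 CPM in both LISC libraries and below 5.7 CPM in both SISC libraries, and the other 10 genes were not called.

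Thyroid hormone receptors are encoded by Thra and Thrb. Thra was read at 97.6 and 111 CPM in SISC against 65.7 and 60.0 CPM in LISC, each SISC library above each LISC library (log2 -0.73 ± 0.26, edgeR adjusted p = 0.316). Thrb was read at 24.5 and 20.1 CPM in SISC against 17.0 and 20.8 CPM in LISC, with overlap (log2 -0.24 ± 0.26, edgeR adjusted p = 0.918). Thra shares 263 exon bases with Nr1d1 on the opposite strand, 5.70% of its own, and the strand setting used for reads there is not given. RSEM's standard deviation of the count, a check for divided reads, was 0 for Thra and Nr1d1 in every library.

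Nr1d1 and Nr1d2 encode the REV-ERB repressors of the circadian clock, and Rora and Rorb encode activators that bind the same elements. Nr1d1 was read at 58.3 and 31.8 CPM in SISC against 4.36 and 14.5 CPM in LISC. Every SISC value was above every LISC value, yet the libraries of each group differed widely from each other. The difference was -2.23 ± 0.66 on the log2 scale (edgeR adjusted p = 0.216), and -3.67 within replicate 1 against -1.12 within replicate 2. Leaving out LISC replicate 2 gave a call for Nr1d1, with log2 -3.35 and an edgeR adjusted p of 0.0468, so its value rests in part on that library, and leaving out LISC replicate 1 gave -1.63. Nr1d2 was read at 15.9 and 30.2 CPM in SISC against 10.8 and 25.4 CPM in LISC, higher in replicate 2 of each group, with overlap between groups (edgeR adjusted p = 0.963). Rora was read at 0.509 and 1.31 CPM in SISC against 2.41 and 3.88 CPM in LISC (log2 1.76 ± 0.72, edgeR adjusted p = 0.407; 1.81 and 1.404 within replicates 1 and 2). Of 13 core and output clock genes tested, edgeR called 0, against 2.20% of all genes. At an unadjusted p below 0.05 there were 0, against 13.4%. DESeq2 and limma-trend called 0 of the clock genes, against 7.41% and 3.71% of all genes each tested. The smallest p among them belonged to Nfil3, a clock-controlled repressor gene, at 28.7 and 14.3 CPM in SISC against 5.74 and 12.5 CPM in LISC (edgeR adjusted p = 0.451). Per1, a feedback repressor gene of the clock, was at 94.95 and 19.7 CPM in SISC against 33.2 and 12.3 CPM in LISC (edgeR adjusted p = 0.714). With no filter on low counts, edgeR called Per1 (adjusted p = 0.00582) and Nfil3 (0.0279), both higher in SISC, but without SISC replicate 1 the log2 difference of Per1 was 0.19. For both genes, as for Nr1d1, SISC replicate 1 was the highest library.

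COUP-TF and testicular receptors are orphan members. Nr2f2, which encodes COUP-TFII, known from mesenchyme and vessels, was read at 7.42 and 10.3 CPM in SISC against 19.6 and 23.9 CPM in LISC. Groups did not overlap, and the difference was 2.44-fold (log2 1.29 ± 0.30, edgeR adjusted p = 0.130; 1.37 and 1.19 within replicates 1 and 2). The summed stromal and endothelial markers given above were also highest in LISC replicate 2, at 1.41 CPM. In SISC replicate 2 and LISC replicate 1 they summed to 0.469 and 0.463 CPM, where Nr2f2 was at 10.3 and 19.6 CPM. These sums rest on few counts, as 1 count was 0.0312 and 0.0927 CPM in those libraries. All 8 markers were too low for the test, and their part in the level of Nr2f2 was not tested. Nr2f6 and Nr2c2 were nearly level between groups, with log2 differences of 0.13 ± 0.26 and -0.12 ± 0.24 (edgeR adjusted p = 0.979 and 0.977). Nr2c1 had the smallest fitted difference of the members, -0.03 ± 0.24, at 13.5 and 13.4 CPM in SISC against 12.3 and 14.0 CPM in LISC. On opposite strands, Ocel1 covers 54.4% of the exon bases of Nr2f6 and Mrps25 30.7% of those of Nr2c2, so their counts carry the strand doubt named for Nr1i3. RSEM's standard deviation of the count was 0 for Nr2f6, Ocel1 and Mrps25 and 0.31 to 8.29 reads for Nr2c2. Nr2f1 had 1 count, in LISC replicate 1.

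The estrogen-related receptor genes encode orphan regulators of energy metabolism. Esrrg was read at 37.5 and 48.1 CPM in SISC against 16.8 and 18.8 CPM in LISC, with no overlap. The difference was 2.40-fold (log2 -1.26 ± 0.25, edgeR adjusted p = 0.0942; -1.15 and -1.34 within replicates 1 and 2). Esrra was level, at 89.3 and 68.5 CPM in SISC against 76.4 and 71.1 CPM in LISC (log2 -0.10 ± 0.28, edgeR adjusted p = 0.998). The estrogen and progesterone receptor genes Esr1, Esr2 and Pgr were close to the counting limit. Esr1, the estrogen receptor alpha gene, had 0 and 2 counts in SISC and 15 and 44 in LISC, or 0 and 0.0625 CPM against 1.39 and 1.51 CPM. By pooled counts it was 33.8-fold higher in LISC, with an exact 95% interval of 8.96 to 286 that covers counting error only (edgeR adjusted p = 0.125). Pgr, the progesterone receptor gene, had 16 and 10 counts in SISC and 0 and 1 in LISC, 22.7-fold higher in SISC by pooled counts (3.72 to 929), and was too low for the test. Esr2 had 2 to 6 counts in each library.

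Of the other orphan receptors, Nr5a2 encodes LRH-1, known for crypt renewal and for steroid synthesis in the gut. It was read at 43.5 and 36.1 CPM in SISC against 35.2 and 39.4 CPM in LISC (log2 -0.09 ± 0.24, edgeR adjusted p = 0.995). Nr6a1 was likewise close between groups (log2 -0.31 ± 0.27, edgeR adjusted p = 0.842). Nr4a2 and Nr4a3 belong to a family of immediate early genes. Nr4a2 was read at 18.7 and 10.4 CPM in SISC against 5.37 and 5.47 CPM in LISC (log2 -1.42 ± 0.39, edgeR adjusted p = 0.188). Nr4a3 had 23 counts in SISC replicate 1 and 2, 1 and 0 in SISC replicate 2 and LISC replicates 1 and 2. SISC replicate 1, the highest library for both and for Nr1d1, also held the most Paneth cell RNA: the 6 markers summed to 8445 CPM there, 1306 CPM in SISC replicate 2, and 52.1 and 26.6 CPM in LISC. Enteroendocrine markers were also highest there, at 174 CPM against 28.3 CPM in SISC replicate 2 and 63.6 and 67.1 CPM in LISC. Paneth cells are known to carry CD24, and SISC were gated as CD24-negative, yet Paneth markers were read in both SISC libraries. The part of Paneth or enteroendocrine cells in these levels was not tested.

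Nuclear receptor genes outside the 37 were described beside them. Of 11 listed, 7 were tested and 0 called by edgeR, against 2.20% of all genes. At an unadjusted p below 0.05 there were 3, against 13.4% of all genes. DESeq2 called 3 of the 7, against 7.41% of all genes it tested. These were Nr3c2, higher in LISC, and Nr3c1 and Nr4a1, higher in SISC. Limma-trend called 0. Nr3c2, the mineralocorticoid receptor gene, was read at 13.2 and 10.7 CPM in SISC against 32.8 and 45.9 CPM in LISC (edgeR adjusted p = 0.0660). Nr3c1, the glucocorticoid receptor gene, was at 124 and 109 CPM in SISC against 47.3 and 60.2 CPM in LISC (edgeR adjusted p = 0.158).

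Coregulators, the proteins that receptors recruit, were described too. All 19 genes were tested and 0 were called by edgeR, DESeq2 or limma-trend, against 2.20%, 7.41% and 3.71% of all genes each tested. At an unadjusted p below 0.05 in edgeR there was 1, against 13.4% of all genes. That gene was Ppargc1a, the coactivator gene known for mitochondrial biogenesis, at 7.57 and 7.72 CPM in SISC against 11.1 and 15.4 CPM in LISC (log2 0.80 ± 0.30, edgeR adjusted p = 0.357). Log2 differences of the list ran from -0.79 to 0.80, with a median of -0.15.

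Genes known to respond to the receptors were described from lists chosen by function. Of 17 tested PPAR target genes, 1 was called, higher in LISC, against 1.45% of all genes. The list's median log2 difference was 0.32 (12 of the 17 above 0). DESeq2 called 5 of the 17, 3 higher in LISC and 2 in SISC, against 7.41% of all genes it tested. Lpl, the lipoprotein lipase gene, had 1 and 2 counts in SISC and 131 and 654 in LISC, 300.2-fold higher by pooled counts (exact 95% interval 102 to 1459; edgeR adjusted p = 0.0173). Fabp4, Cd36 and Plin1, fat cell targets of Pparg, were too low for the test.

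LXR target genes were called in both directions. Calls among the 12 tested were 3 in LISC and 2 in SISC, against 1.45% and 0.741% of all genes. The LXR genes were not called. DESeq2 called 8 of the 12 targets and limma-trend 4, against 7.41% and 3.71% of all genes each tested. Scd2, a fatty acid desaturase gene, was at 64.9 and 49.2 CPM in SISC against 423 and 318 CPM in LISC (edgeR adjusted p = 0.0428), and Mylip, the gene of a ligase that degrades the LDL receptor, at 1.60 and 3.09 against 18.4 and 26.7 CPM (0.0441). Scd1, another desaturase gene, had 1 and 2 counts in SISC and 77 and 268 in LISC, 132-fold higher by pooled counts (44.8 to 643; edgeR adjusted p = 0.0216). In the other direction, Abcg5 and Abcg8, whose products form the sterol export pump, were at 19.9 and 29.2 CPM and 19.1 and 36.5 CPM in SISC. In LISC they were at 0.556 and 1.82 CPM and 0.927 and 0.756 CPM (edgeR adjusted p = 0.0461 and 0.0218). Scd2 lost its call when any of the 4 libraries was left out, with log2 differences from 2.48 to 2.90. The call of Mylip was lost without LISC replicate 2 (log2 2.96) and that of Abcg5 without SISC replicate 2 (-4.01). Without LISC replicate 2 Abcg5 stayed called, at -5.44.

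Xenobiotic target genes of PXR and CAR were also divided. Calls among the 11 tested were 2 in LISC and 1 in SISC, against 1.45% and 0.741% of all genes. Enterocyte markers summed to 269 and 156 CPM in SISC but 21.4 and 40.8 CPM in LISC. Between the groups they moved with the genes higher in SISC here and among the LXR targets, and their part was not tested. Cyp2c55, a cytochrome P450 gene, was at 1.53 and 3.12 CPM in SISC against 133 and 300.3 CPM in LISC (edgeR adjusted p = 0.0269), with log2 6.51, or 7.11 without SISC replicate 2 and 5.81 without LISC replicate 2. Abcb1a, the P-glycoprotein gene, which is also counted among the VDR targets, was at 25.4 and 25.5 CPM in SISC against 238 and 282 CPM in LISC (edgeR adjusted p = 0.0218). Without SISC replicate 2 Abcb1a was not called (log2 3.33). Abcc2, a conjugate export pump gene, was at 35.7 and 29.96 CPM in SISC against 0.927 and 0.584 CPM in LISC (edgeR adjusted p = 0.0167). Reads of Cyp2c55 may be shared with near-identical family members.

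In the remaining target lists, Abcb1a was the single call among 7 VDR targets, where 2.20% of all genes were called. Among 4 thyroid hormone targets, 1 was called: Me1, the malic enzyme gene, at 1.75 and 1.81 CPM in SISC against 11.3 and 10.9 CPM in LISC (edgeR adjusted p = 0.0431), a call lost when any of the 4 libraries was left out (log2 2.60 to 2.67). Of 5 tested retinoic acid targets 0 were called by edgeR, DESeq2 or limma-trend, against 2.20%, 7.41% and 3.71% of all genes each tested. In edgeR without the replicate block 0 had an unadjusted p below 0.05, against 13.4% of all genes. Tgm2, a transglutaminase gene, was at 290 and 196 CPM in SISC against 150 and 88.9 CPM in LISC (log2 -1.02 ± 0.41, edgeR adjusted p = 0.398). Dhrs3, a retinaldehyde reductase gene, was at 36.7 and 36.3 CPM in SISC against 27.0 and 31.2 CPM in LISC (edgeR adjusted p = 0.740). Cyp26a1 and Cyp26b1, which encode retinoic acid hydroxylases, had at most 3 counts in a library.

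Of 4 FXR targets tested, Nr0b2 included, 0 were called by edgeR, against 2.20% of all genes. At an unadjusted p below 0.05 there was 1, against 13.4% of all genes. DESeq2 and limma-trend each called Nr0b2, against 7.41% and 3.71% of all genes each tested. Slc51b, a subunit gene of the basolateral bile acid exporter, was at 0.437 and 1.19 CPM in SISC against 1.30 and 4.30 CPM in LISC (edgeR adjusted p = 0.557). Fgf15, the hormone gene that FXR is known to induce in ileum, had 0 and 4 counts in SISC and 0 and 2 in LISC. Of 3 LRH-1 targets tested, 0 were called by edgeR, against 2.20% of all genes. The single gene at an unadjusted p below 0.05, called by DESeq2 and limma-trend, was again Nr0b2. Ccne1, the cyclin E1 gene, was at 8.44 and 11.1 CPM in SISC against 15.8 and 12.3 CPM in LISC (edgeR adjusted p = 0.638).

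**Figure D4:**
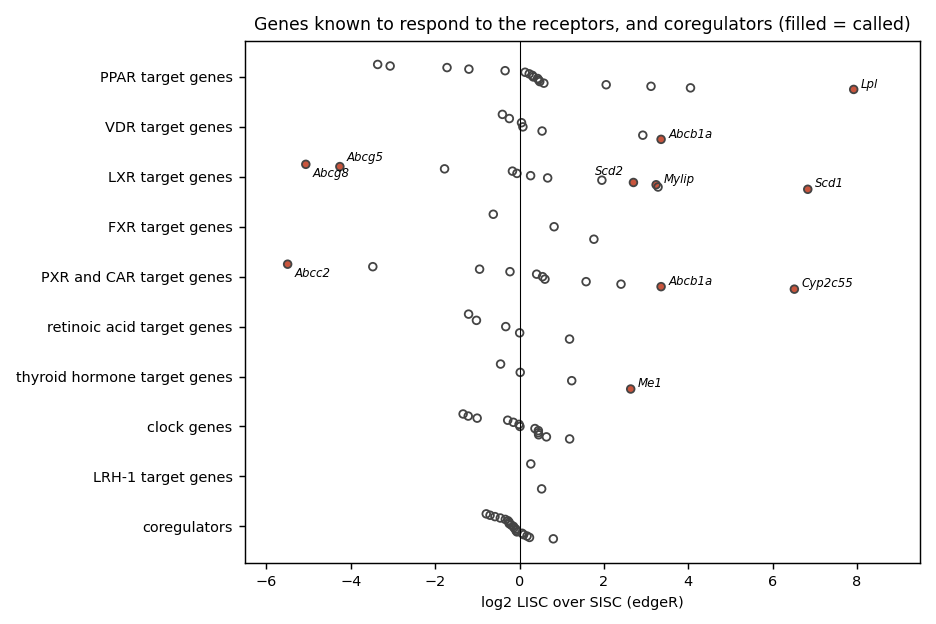
Fitted log2 difference of LISC over SISC for the tested genes of 10 lists, which are 9 sets of genes known to respond to the receptors or the clock and 1 of coregulators. Each circle is a gene, filled and named where edgeR's adjusted p was below 0.05, with a small vertical offset inside a row for legibility. Nr0b2, with 0 counts in LISC, is left out, and Abcb1a appears in both lists that hold it. LXR and xenobiotic targets have filled circles on both sides of 0.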

How the data were processed

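Poly(A)-selected RNA of 4 libraries, 2 SISC and 2 LISC, was made into directional libraries, as the protocols in the labels state (per the labels). STAR 2.7.2b, RSEM 1.2.31 and build GRCm38 are named in the submitters' processing notes. No source used here gives the annotation release, strand setting or trimming. Deposited by the authors were RSEM expected counts, which divide reads that fit several genes, and TPM. RSEM's deposited standard deviation of the count (another unit, in reads) served as a check for divided reads. It was at most 0.559% of the count in any library for members with counts in all 4 libraries.

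Identifiers were paired with GENCODE vM21 symbols (55141 of 55487). Expected counts were rounded and tested with edgeR 4.0.16 under R 4.3.3 (quasi-likelihood, group as the only term, TMM, filterByExpr minimum 10), and p-values were adjusted by Benjamini-Hochberg over 14165 genes. SE is the log2 difference divided by the square root of F. Alternatives were DESeq2 1.42.0, other size factors, other filters, limma 3.58.1 on log2(TPM + 1) or log2(TPM + 0.1), a replicate block and leaving out each library. The fits were tested on simulated data. Libraries of a group were not copies: chi-square per degree of freedom was 892 for SISC and 833 for LISC. These values include the rRNA genes, whose share of counts differed between replicate numbers. They do not measure the spread of the other genes alone. Promoters are from RefSeq.

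Values by library are given for members at an unadjusted p below 0.05, the 10 with the highest TPM, and those over 1 log2 unit in both replicate numbers, with others added for their role. From other lists, called genes are named, or up to 2 with the smallest p. Members and lists were chosen with earlier results of these data known.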

Additional observations from a re-analysis of the deposited data

How the results depend on the processing

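Pparg and Rarg were called under each of the 11 alternatives, with log2 differences of 3.65 to 4.44 and 3.35 to 4.58 when a library was left out. Members called higher in LISC numbered 4 with no filter on low counts and 5 with the replicate block, and 2 each time a library was left out. Those higher in SISC numbered 4 with DESeq2, 5 with no filter, 2 with limma-trend at either pseudocount, 4 with the block, and 0 to 1 with a library left out. Over all genes, calls higher in LISC and SISC numbered 779 and 389 with DESeq2, 942 and 465 with no filter, 353 and 172 with limma-trend on log2(TPM + 1), and 372 and 179 on log2(TPM + 0.1). Leaving out a library gave 166 to 338 and 79 to 149, the highest without SISC replicate 1.

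The replicate block called 1015 and 524 genes. The numbers are not stated to mark a shared animal or day, although same-numbered libraries deviated together (correlation across genes of 0.658), so its added members, Esr1, Nr1h4, Nr2f2, Esrrg, Nr0b2, Nr1i3 and Thra, are given here only. Of the other genes named, the block added calls for Tgm2 (log2 -1.04, edgeR adjusted p = 0.0155), Per1 (-1.10, 0.0435), Nr3c1 (-1.12, 0.0206) and Nr3c2 (1.72, 0.0116).

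Signs turned, with a library left out, only for genes that were not called. The log2 difference then ran from -0.2987 to 0.0977 for Esrra, -1.0784 to 0.1663 for Nr1d2, -0.2782 to 0.1166 for Nr1i2, -0.1106 to 0.0604 for Nr2c1 and -0.0099 to 0.2761 for Nr2f6. It ran from -0.2462 to 0.0404 for Nr5a2, -0.6479 to 0.0750 for Ppara, -0.1246 to 0.6729 for Ppard, -0.5416 to 0.1090 for Rxrb, -1.2602 to 0.1707 for Crebbp and -2.2146 to 0.1875 for Per1. With 2 libraries a group and 3 counts as the limit of detection (0.0937 to 0.278 CPM), differences such as those of Rarb, Esr2 and Rorb were not detectable at this depth.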
